A study of Rattus norvegicus with 320 samples.

Results

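The miR-183, miR-96 and miR-182 cluster is a group of microRNA (miRNA) genes that lie close together on rat chromosome 4. Small RNA libraries of Fischer 344 rats, an inbred laboratory strain, held 4 of its mature products among 616 miRNAs, namely rno-miR-182, rno-miR-183-5p, rno-miR-96-5p and rno-miR-183-3p. These 4 rows were found by their names, and the cluster itself was chosen by its measured levels across organs and ages and above all in liver. Levels by organ and by age are therefore given as a description without a test, and the difference between the sexes is the comparison that was tested.

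The samples came from 32 rats, 16 females and 16 males, at 2 weeks (juvenile), 6 weeks (adolescent), 21 weeks (adult) and 104 weeks (aged), with 4 rats for each sex and age. Each rat gave adrenal gland, brain, heart, kidney, liver, lung, skeletal muscle, spleen, thymus and either uterus or testis, so organs of the same number, sex and age share an animal, and uterus and testis have 1 sex each. RNA came from ground organ tissue, so fewer cells of a type and less of a miRNA per cell cannot be told apart. The paper does not say whether each organ was taken whole. Of 320 libraries 318 were used. The left-out brain library, a week 6 male, held the nervous tissue miRNAs miR-124, miR-9a and miR-9b at a summed 30900 CPM, against 44092 to 99657 in the other 31 brain libraries. The left-out spleen library, a week 104 female, held lymphocyte and blood cell miRNAs at 16633 CPM against 30379 to 72436 in the other 31 spleen libraries, and rno-miR-182 at 2926 CPM, above the 1210 that was the highest of those. CPM is the count of a miRNA per 1000000 miRNA counts of its library. Libraries held 315550 to 10571766 counts, and the liver libraries were the shallowest group by median, with 315550 to 1692126 counts. The hepatocyte miRNA miR-122 stood at 20497 to 45294 CPM in liver and at no more than 2959 CPM in any library of another organ.

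A miRNA is a short RNA that guides Argonaute proteins to messenger RNAs, mainly through the seed, bases 2 to 8 from its 5′ end. The 3 genes of this cluster are best known from sensory cells: hair cells of the inner ear, photoreceptors and sensory neurons make their products in quantity, and a mutation in the seed of miR-96 causes hearing loss. The products are also found in many epithelia and have been linked to the FOXO transcription factors. In RefSeq (GRCr8) all 3 hairpins were on the minus strand, Mir182 at chr4:59752246-59752307, Mir96 at chr4:59755841-59755946 and Mir183 at chr4:59756044-59756153. The cluster spanned 3908 bases between the protein-coding genes Nrf1 and Ube2h and lay in none of them, with 97 bases between Mir183 and Mir96 and 3533 bases between Mir96 and Mir182. A hairpin on the opposite strand, Mir3553, overlapped Mir183, and no row of the count table bore its name.

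The sequences below, as RefSeq and the count table both give them, show how alike the 3 main products are. Each is written 5′ to 3′ with its seed in capitals.
rno-miR-182: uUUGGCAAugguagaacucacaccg
rno-miR-183-5p: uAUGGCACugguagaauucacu
rno-miR-96-5p: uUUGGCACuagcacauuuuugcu
rno-miR-183-3p: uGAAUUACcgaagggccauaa
The first 3 begin with nearly the same bases. Counted from 1 at the 5′ end, the seeds of rno-miR-182 and rno-miR-96-5p differed by A8C alone, those of rno-miR-183-5p and rno-miR-96-5p by A2U alone, and those of rno-miR-182 and rno-miR-183-5p by U2A and A8C. Beyond the seed rno-miR-182 and rno-miR-183-5p stayed alike, with the same base at 18 of 22 compared positions, while rno-miR-182 and rno-miR-96-5p shared 12 of 23. The seeds of rno-miR-182, rno-miR-183-5p and rno-miR-183-3p stood in no other row of the table. The seed of rno-miR-96-5p was shared with 1 other row, a candidate miRNA that the authors placed on chromosome X, which reached a mean of 403 CPM in testis and 0 to 12.7 CPM in liver. The product of the other arm of Mir183, rno-miR-183-3p, has an unrelated seed.

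Brain held the most of every member. The mean of rno-miR-182 was 19646 CPM ± 17781 (SD, n = 31) in brain, 5181 ± 1739 (n = 32) in kidney, 5163 ± 1171 (n = 32) in lung, 3408 ± 2522 (n = 32) in liver and 3056 ± 1959 (n = 32) in thymus. Uterus followed at 1422 ± 461 CPM (n = 16), adrenal gland at 1260 ± 1038 (n = 32), testis at 928 ± 1194 (n = 16), spleen at 598 ± 267 (n = 31), skeletal muscle at 503 ± 395 (n = 32) and heart at 101 ± 43.4 (n = 32). The ranges of rno-miR-182 in each organ and the next in this order overlapped for every neighbouring pair, and kidney and lung had the same mean within 1.00-fold.

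rno-miR-183-5p followed nearly the same order at lower levels, from 5686 CPM ± 5889 (SD, n = 31) in brain through 953 ± 272 (n = 32) in lung and 946 ± 460 (n = 32) in kidney to 16.6 ± 9.36 (n = 32) in heart. rno-miR-96-5p had a mean of 423 CPM ± 586 (n = 31) in brain, 77.2 ± 39.5 (n = 32) in lung, 76.8 ± 76.7 (n = 32) in liver and 0.914 ± 0.836 (n = 32) in heart. rno-miR-183-3p, the minor arm, had a mean of 22.9 CPM ± 32.9 (n = 31) in brain and at most 4.66 CPM (kidney) elsewhere, with 0 to 6 counts in any liver library. Skeletal muscle and heart had the lowest means of rno-miR-182.

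**Figure D1:**
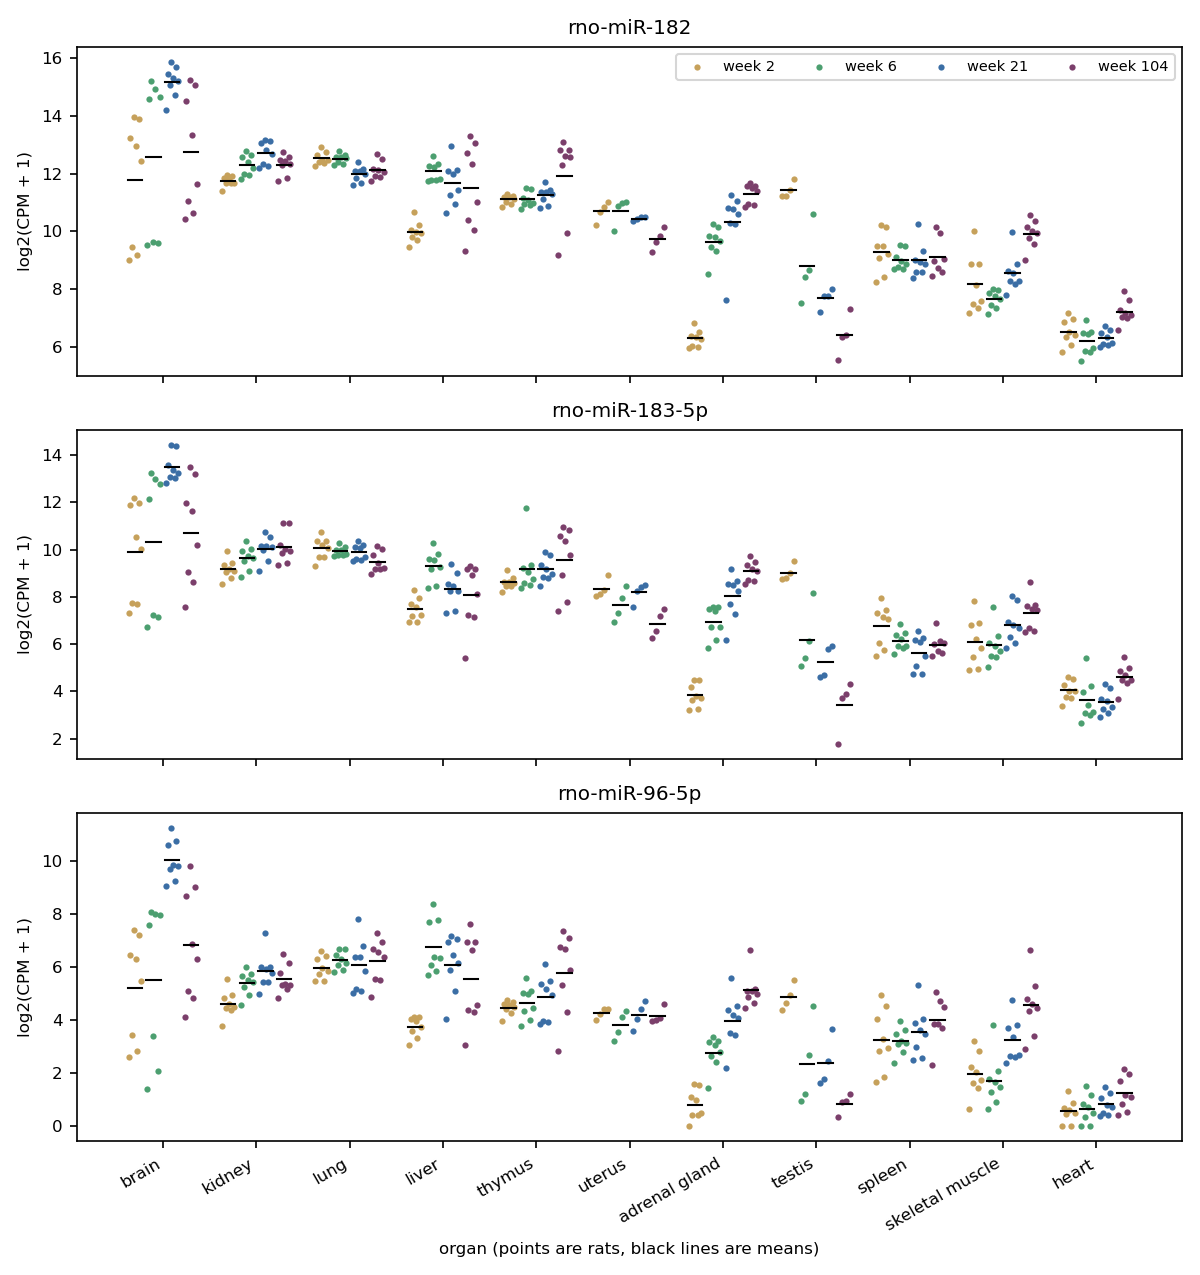
Levels of the 3 main cluster members by organ and age, as log2(CPM + 1) on the vertical axes; points are rats, colours are ages and black lines are means. Brain has the highest means, 19646 CPM for rno-miR-182, and heart the lowest, and the points of a brain age other than week 21 spread over several log2 units.

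The order of the members by share of counts was the same in every organ, but their ratios varied. By organ the mean share of rno-miR-182 ran from 77.7% in brain to 86.5% in liver. rno-miR-182 made up 82.9% ± 6.72 (SD, n = 318 libraries) of the summed counts of the 4 members, rno-miR-183-5p 15.8% ± 6.46, rno-miR-96-5p 1.23% ± 0.960 and rno-miR-183-3p 0.0669% ± 0.0691. These shares compare reads of different sequences, and no correction for unequal capture of sequences was made. The mean ratio of rno-miR-182 to rno-miR-183-5p, taken on log2(CPM + 1), was lowest in brain at 1.95 ± 0.58 (SD, n = 31), which is 3.86-fold, and highest in liver at 3.02 ± 0.74 (n = 32), which is 8.10-fold. The ratio of rno-miR-183-5p to rno-miR-96-5p ran from 2.64 ± 0.87 (log2, n = 31) in spleen and 2.75 ± 0.83 (n = 32) in liver to 4.38 ± 0.47 (n = 32) in kidney. This order depended on the pseudocount: with 5 CPM in place of 1 CPM heart was lowest at 1.76 and spleen stood at 2.24. Within liver the log2 ratio of rno-miR-182 to rno-miR-183-5p was 2.51 ± 0.59 (n = 8) at week 2 and 3.46 ± 0.56 (n = 8) at week 104.

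Over the 44 means of an organ at an age, the 3 of 615 other miRNAs most like each member were the other members. The correlation of rno-miR-182 on log2(CPM + 1) was 0.983 with rno-miR-183-5p, 0.967 with rno-miR-96-5p and 0.902 with rno-miR-183-3p. The 44 means share rats and libraries, so these values describe the pattern only.

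In brain the members varied widely within a group. At week 21 all 8 brains were high, with rno-miR-182 at 18696 to 59936 CPM and a median of 39271. At week 2 the 4 females stood at 517, 576, 702 and 15221 CPM of rno-miR-182 and the 4 males at 5543, 7917, 9688 and 16038. At week 6 the 4 females had 765, 795, 25750 and 31266 CPM and the 3 males kept 738, 24396 and 37493. At week 104 the females had 1366, 2126, 3165 and 38720 CPM and the males 1585, 10322, 23719 and 34122. By the paper's account, miRNA made up a far smaller share of reads in the library at 3165 CPM than in brain on average. Rats of 1 sex and age were thus far apart, and the ranges of weeks 2, 6 and 104 overlapped.

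The same brain libraries differed in miRNAs of the miR-200 family, which is characteristic of epithelial cells. The 9 rows of miR-200a, miR-200b, miR-200c, miR-141 and miR-429 summed to 48.2 to 27146 CPM over the 31 brain libraries. In the week 2 females named above, in the same order, the sum was 61.8, 217, 62.5 and 5339 CPM. In the week 6 females it was 156.1, 144.8, 9454 and 5778 CPM, and in the week 6 males 48.2, 8959 and 12629. At week 21 the 8 brains held 8623 to 27146 CPM. The most abundant were rno-miR-429, with a median of 1799 CPM and a range of 14.5 to 11089, and rno-miR-200b-3p, with a median of 1750 and a range of 10.9 to 7631. The nervous tissue rows kept to 44092 to 99657 CPM in all 31. The part of the miR-200 rows in the brain values of the cluster was not tested, and this side-by-side view was taken after the values had been seen.

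**Figure D2:**
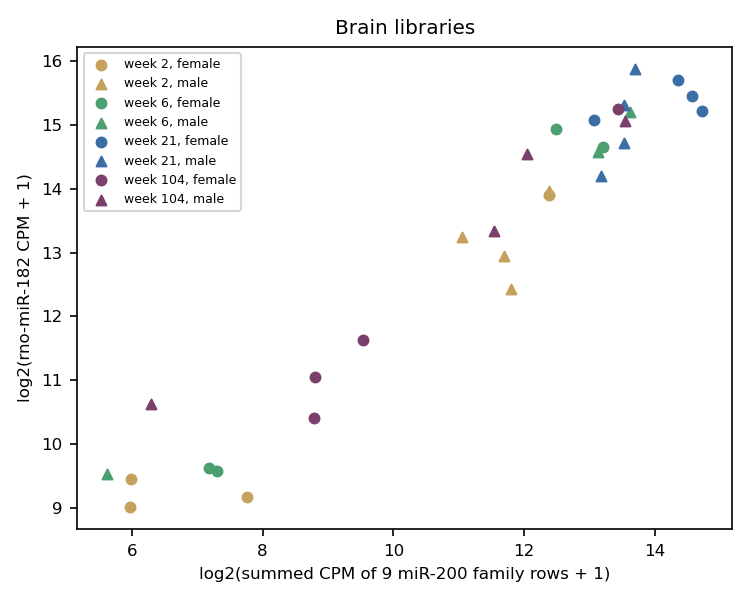
rno-miR-182 in each of the 31 brain libraries (vertical axis, log2(CPM + 1)) against the summed CPM of the 9 miR-200 family rows (horizontal axis, log2), with colours for age and symbols for sex. Libraries of the same age and sex lie far apart along both axes, and all 8 libraries of week 21 lie at the upper right.

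Adrenal gland showed the steepest rise with age. rno-miR-182 stood at 60.7 to 113 CPM at week 2 (mean 78.8 ± 17.4, SD, n = 8), 368 to 1208 at week 6 (834 ± 271, n = 8), 198 to 2435 at week 21 (1544 ± 680, n = 8) and 1822 to 3271 at week 104 (2585 ± 582, n = 8). The mean at week 104 was 32.8-fold that at week 2. rno-miR-183-5p went from 14.2 CPM ± 5.28 to 567 ± 166 and rno-miR-96-5p from 0.904 ± 0.768 to 38.1 ± 24.8 over the same span (n = 8 each). All 4 members had week 104 above week 2 in adrenal gland without overlap, as did 5.03% of the 616 miRNAs, and 2 of the 4 had week 6 above week 2, against 3.25%. For rno-miR-183-3p this rested on 0 counts at week 2 against 2 to 9 at week 104. Counts of rno-miR-96-5p were 0 to 7 at week 2 and 76 to 268 at week 104. The miR-200 family rows summed to 27.8 to 164 CPM in the 32 adrenal libraries. A wider epithelial and neuroendocrine list of 20 rows, given in full with the liver results, summed to 4302 to 8791 CPM. The part of either list in the adrenal values of the cluster was not tested.

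Testis showed the opposite course. The 4 testes of week 2 held 2371, 2375, 2790 and 3626 CPM of rno-miR-182, those of week 6 held 185, 340, 404 and 1558, those of week 21 held 148, 216, 218 and 254, and those of week 104 held 46.1, 80.3, 84.0 and 157. The week 2 values lay above every later testis value. rno-miR-183-5p fell from a mean of 525.6 CPM ± 138 (SD, n = 4) at week 2 to 11.8 ± 6.84 (n = 4) at week 104, and rno-miR-96-5p from 29.8 ± 11.1 to 0.863 ± 0.442. All 4 members were lower at week 104 than at week 2 without overlap, but so were 63.6% of all miRNAs in testis. At week 104 rno-miR-183-3p had 0 to 1 counts and rno-miR-96-5p 2 to 7, too few for a precise CPM. These organs and ages were picked for their values, and a change that the members share with most miRNAs of an organ is not particular to them.

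**Figure D3:**
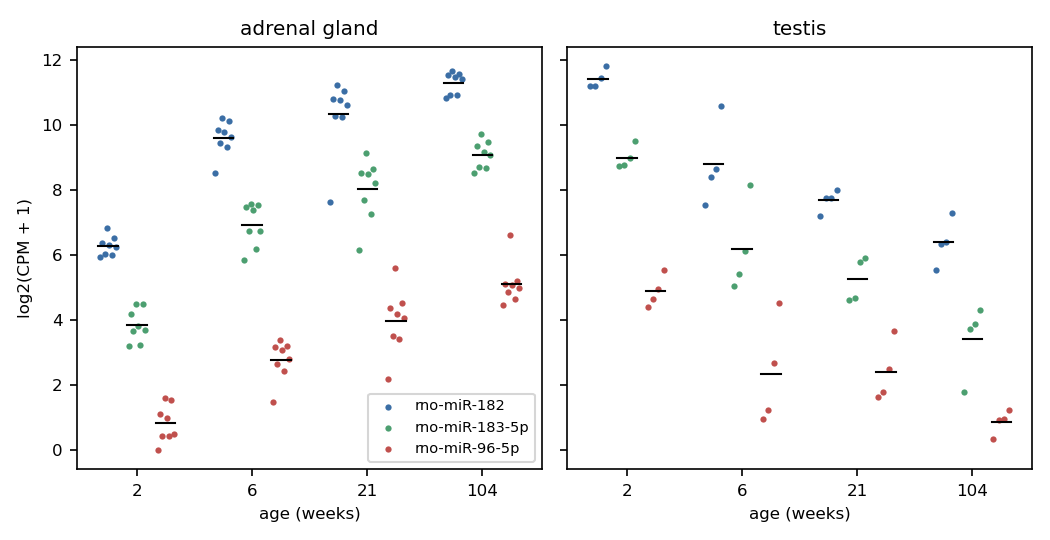
The 3 main members by age in adrenal gland (8 rats per age) and testis (4 rats per age), as log2(CPM + 1) on a shared vertical axis; points are rats and black lines are means. The means of rno-miR-182 go from 78.8 to 2585 CPM in adrenal gland and from 2791 to 91.8 CPM in testis.

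Other organs moved less. In kidney the mean of rno-miR-182 was 3458 CPM ± 414 at week 2 and 6903 ± 1865 at week 21, and in lung 6001 ± 960 and 4133 ± 745 (SD, n = 8 each). In thymus it was 2217 CPM ± 222 at week 2 and 5289 ± 2974 at week 104, in skeletal muscle 367 ± 304 and 1017 ± 320, and in uterus 1687 ± 368 and 868 ± 220 (n = 8 each, and n = 4 in uterus). Lung, thymus and skeletal muscle overlapped between these ages, while the kidneys of week 21 lay above and the uteri of week 104 below those of week 2. The share of all miRNAs that parted in this way was not counted in kidney or uterus. Whether the parting there is particular to the cluster is therefore not known. In the female thymi the miR-200 family rows summed to 3271 to 5100 CPM at week 2 and 9904 to 13307 at week 104, and in the male thymi to 3447 to 5090 and 982 to 12734. The lymphocyte and blood cell rows went from 36831 to 46923 CPM to 17143 to 29718 in females and from 38742 to 57477 CPM to 11720 to 29916 in males. The part of either list in the thymus values of the cluster was not tested. In spleen and heart the means of the 4 ages stayed between 530 and 694 CPM and between 75.6 and 153 CPM. The highest of these spleen means, 694 CPM, was that of week 2. By the paper's account, RNA integrity was good in most samples, with the juvenile spleens as the exception. Juvenile age and lower RNA integrity thus coincided in spleen. The part of RNA integrity in the spleen values was not tested.

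Liver, the main organ of bile acid, glucose and lipid metabolism, started low and then parted by sex. At week 2 the 4 female livers held 708, 896, 989 and 1007 CPM of rno-miR-182 and the 4 male livers 834, 1046, 1197 and 1629. At week 6 the females held 3493, 3543, 3640 and 4798 CPM and the males 3447, 4925, 5195 and 6329. Both sexes thus stood above all livers of week 2, with a fitted log2 difference between weeks 6 and 2 of 2.20 (SE 0.22), and the sexes overlapped at both ages.

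At the later ages the sexes no longer overlapped in rno-miR-182. At week 21 the female livers held 1579, 1958, 2436 and 2792 CPM and the male livers 4089, 4386, 4483 and 8002. At week 104 the females held 634, 1059, 1330 and 2073 CPM and the males 5112, 6724, 8567 and 10146. From week 2 to week 104 the fitted log2 difference was 0.76 (SE 0.30) in females and 2.96 (SE 0.32) in males.

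rno-miR-183-5p and rno-miR-96-5p went the same way at lower levels. At week 104 the female livers held 41.3, 139, 151 and 280 CPM of rno-miR-183-5p and the male livers 484, 578, 584 and 634. rno-miR-96-5p stood at 7.37, 18.9, 19.7 and 22.8 CPM in those females, from 5 to 33 counts, and at 98.3, 121, 121 and 196 CPM in those males, from 103 to 151 counts. At week 21 both members overlapped between the sexes. Between weeks 2 and 6 the fitted log2 difference was 2.00 (SE 0.28) for rno-miR-183-5p and 3.47 (SE 0.38) for rno-miR-96-5p. With sequencing lane as a covariate the latter was 2.36 (SE 0.45), and all 4 livers of lane 6 were of week 2. Without overlap, 3 of the 4 members were higher in week 6 than week 2 livers, as were 2.44% of all miRNAs, 1 of 4 was higher in males at week 21, against 1.95%, and 3 of 4 were higher in males at week 104, against 2.6%.

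**Figure D4:**
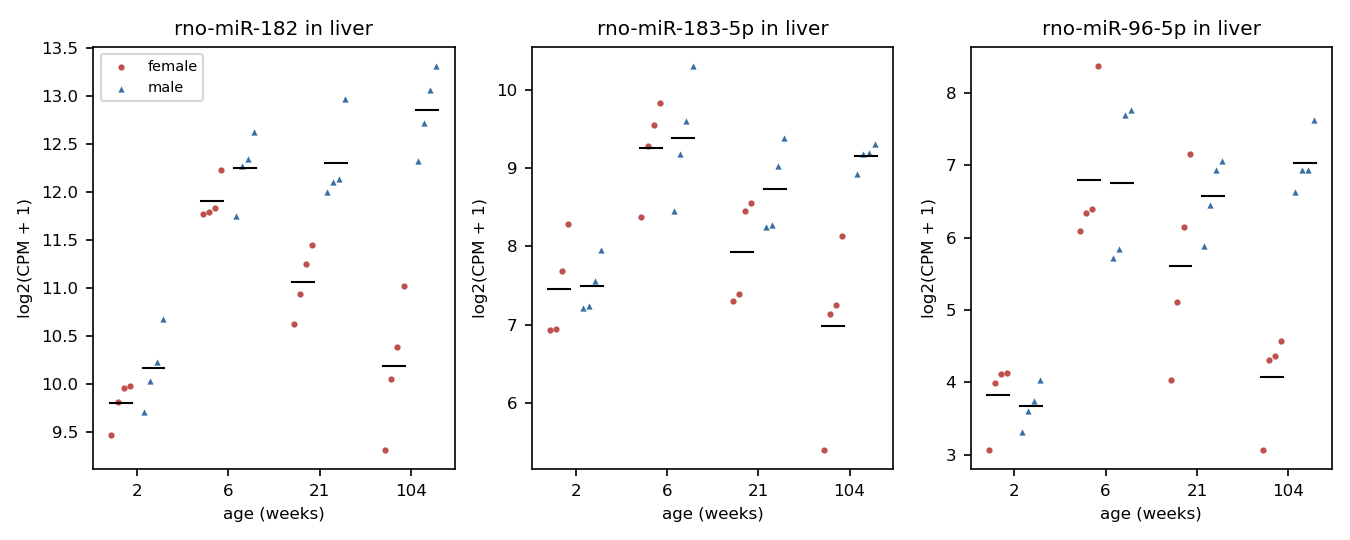
The 3 main members in liver by age and sex, as log2(CPM + 1) on each vertical axis; points are rats (4 per sex and age) and black lines are means. Males lie above all females in rno-miR-182 at weeks 21 and 104, and in rno-miR-183-5p and rno-miR-96-5p at week 104.

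The sex difference in liver was tested by a quasi-likelihood fit in edgeR, run over all 616 miRNAs, with Benjamini-Hochberg adjustment and a threshold of 0.05. Cluster and liver were chosen with earlier results of these data known, so the p-values and ranks below are not independent evidence. Averaged over the 4 ages, rno-miR-182 was higher in males by 1.23 on the log2 scale (SE 0.15, edgeR adjusted p = 7.85e-07), or 2.34-fold, and had the smallest p of all 616 miRNAs. rno-miR-183-5p was higher by 0.76 (SE 0.19, edgeR adjusted p = 0.0256). rno-miR-96-5p differed by 0.88 (SE 0.26, edgeR adjusted p = 0.0773) and rno-miR-183-3p by 1.29 (SE 0.48, edgeR adjusted p = 0.247), which did not pass. In all 1.3% of the miRNAs passed this test. The call of rno-miR-183-5p rested on single libraries: leaving out any of 7 of the 32 in turn gave edgeR adjusted p-values over the threshold, up to 0.0725, and library-size scaling gave 0.105. rno-miR-96-5p passed with DESeq2 (adjusted p = 0.0282), and in edgeR with lane as a covariate (adjusted p = 0.000683) and with the replicate block (adjusted p = 0.0157).

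The difference was largest at week 104, when rno-miR-182 was higher in males by 2.60 (log2, SE 0.31, edgeR adjusted p = 5.71e-07), or 6.06-fold. rno-miR-96-5p was higher by 2.87 (SE 0.53, edgeR adjusted p = 0.00143), or 7.32-fold, and rno-miR-183-5p by 1.88 (SE 0.39, edgeR adjusted p = 0.00437), or 3.68-fold. These 3 had the 3 smallest p-values of the 616, and 0.812% of the miRNAs passed. That rank is no independent support, since the cluster was chosen for its levels in these livers. At week 21 rno-miR-182 was higher in males by 1.53 (SE 0.30, edgeR adjusted p = 0.00198), and the other 3 members did not pass, while 2.11% of the miRNAs did. With lane as a covariate rno-miR-183-5p (1.40, edgeR adjusted p = 0.0120) and rno-miR-96-5p (1.63, edgeR adjusted p = 0.0128) passed there too. At week 2 no member passed in edgeR or DESeq2 although 4.55% of the miRNAs did in edgeR, with 0.176 as the smallest unadjusted edgeR p of a member, and the log2 difference of rno-miR-182 had a 95% confidence interval of -0.19 to 1.00. At week 6 no member passed in either tool and 0% of the miRNAs passed in edgeR, with 24 of 616 at an unadjusted p under 0.05 and 1 called by DESeq2, and the interval of rno-miR-182 was -0.22 to 0.97.

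The change of the sex difference with age was tested in the same fit. It passed for rno-miR-182 (edgeR adjusted p = 0.00598, the smallest p of the 616) and narrowly for rno-miR-96-5p (edgeR adjusted p = 0.0437), and 1.46% of the miRNAs passed. For rno-miR-183-5p the edgeR adjusted p was 0.158 and for rno-miR-183-3p 0.938, while rno-miR-183-5p passed with DESeq2 (adjusted p = 0.0498) and with lane as a covariate (edgeR adjusted p = 0.0192). The call of rno-miR-96-5p was lost without any 1 of 20 of the 32 libraries left out in turn, with edgeR adjusted p-values up to 0.132, and with library-size scaling (0.0884), whereas that of rno-miR-182 held in all 32 such fits. Liver was singled out with earlier results of these data known, so the p-values in liver are not independent evidence of a sex difference.

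Other cell type markers were read beside these values. The hepatocyte rows summed to 209930 to 303570 CPM in the week 104 female livers and 243200 to 277150 in the males, which overlapped. The miR-200 family rows summed to 246 to 1711 CPM in these females and 987 to 2653 in these males, and the lymphocyte and blood cell rows to 1775 to 12367 and 3962 to 8142. Of the 9 miR-200 family rows, 9 hepatocyte rows and 8 lymphocyte and blood cell rows, 0 passed the edgeR sex test at week 104. Of these 26, 3 had an unadjusted p under 0.05, all of the miR-200 family, as did 52 of all 616 miRNAs. DESeq2 called 1 of the 26, rno-miR-200b-3p, and 11 of all miRNAs. rno-miR-200b-3p was higher in males by 1.499 on the log2 scale (DESeq2 adjusted p = 0.0262) and by 1.49 in edgeR (SE 0.42, edgeR adjusted p = 0.0843). The median log2 sex difference of the 9 miR-200 family rows there was 0.76, against -0.01 over all miRNAs, and their part in the result was not tested. At week 21 the hepatocyte rows summed to 280100 to 312630 CPM in females and 292140 to 355920 in males. The miR-200 family rows summed to 521 to 1105 CPM (median 989) in females and 532 to 3667 (median 709) in males. Male 3 alone stood at 3667 CPM, and the next highest male at 732, below the female median. The median log2 sex difference of the 9 rows was 1.10, against 0 over all miRNAs. The red cell rows summed to 3745 to 4927 CPM in these females and 5470 to 13188 in these males, without overlap. In edgeR 1 of 5 red cell rows was higher in males at week 21, rno-miR-486 by 1.31 (log2, SE 0.29, adjusted p = 0.00552). Of 9 hepatocyte rows 1 was, rno-miR-215 by 6.46 (SE 1.07, adjusted p = 0.000249), with 1 male at 15540 CPM and the other 7 livers of that age at 16.3 to 77.1. The hepatocyte list is not particular to liver, since its rows summed to 28284 to 96472 CPM in kidney. Of the 20 epithelial and neuroendocrine rows 1 was lower in males, rno-miR-203b-3p at -0.99 (SE 0.27, adjusted p = 0.0345). The part of these lists in the week 21 difference was not tested. The liver libraries were spread over 8 sequencing lanes with 4 in each, and with lane as a covariate rno-miR-182 differed between the sexes at week 104 by 2.79 on the log2 scale.

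The epithelial and neuroendocrine list, 20 rows that add miR-203a, miR-203b, miR-205, miR-375, miR-7a, miR-7b and miR-31a to the miR-200 family, moved in both directions in liver. From week 2 to week 6, 1 of its 20 rows rose and 2 fell, against 12.2% and 23.1% of all miRNAs. From week 2 to week 104, 4 of the 20 rose and 4 fell, against 15.7% and 28.9%. The miR-200 family rows alone had 0 higher and 3 lower of 9 at week 104. Rows of 3 other cell lists rose beside the cluster. At week 6 over week 2, 3 of 9 hepatocyte, 3 of 8 lymphocyte and blood cell and 2 of 5 red cell rows rose, and at week 104 over week 2, 5, 4 and 4 of them, with 0 lower in each. Their part in the rise of the cluster was not tested.

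In the 8 other organs with both sexes no member passed the same test averaged over ages. None of the 32 tests of a member in an organ had an edgeR adjusted p under 0.05, 2 had an unadjusted p under 0.05, and DESeq2 called none either. The share of all miRNAs that passed was 0.325% in brain, 1.95% in kidney, 0.162% in lung, 2.27% in thymus, 5.03% in adrenal gland, 0% in spleen (61 of 616 at an unadjusted p under 0.05, and 0 by DESeq2), 0.812% in skeletal muscle and 0.649% in heart. The log2 difference of rno-miR-182, male minus female, was -0.17 in kidney (95% confidence interval -0.38 to 0.05), -0.06 in lung (-0.29 to 0.17), 0.02 in spleen (-0.43 to 0.47) and 0.17 in heart (-0.15 to 0.48). These 4 intervals lay below the 0.92 to 1.53 of liver. Intervals of thymus, adrenal gland and skeletal muscle are not listed, so the 4 do not show the difference to be confined to liver. Over the main fit and 5 alternatives rno-miR-182 differed by -0.35 to -0.21 in thymus and -0.35 to -0.23 in adrenal gland. In skeletal muscle it differed by 0.53 to 0.73, closer to liver than in kidney, lung, spleen or heart. Skeletal muscle is thus not shown to lie apart from liver. In brain the interval was -0.77 to 1.76, so a difference of the size in liver could not be told from none there. The 2 smallest p-values were those of rno-miR-182 in skeletal muscle, higher in males by 0.55 (SE 0.19, edgeR adjusted p = 0.257), and of rno-miR-96-5p in adrenal gland, at -0.58 (SE 0.25, edgeR adjusted p = 0.211). Whether liver and another organ differ in the sex difference was not tested in 1 model.

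The sexes were also compared at single ages, and across ages, in the 8 other organs, a set of tests added after the values had been seen. Of 160 such tests of a member 2 passed, or 1.25%, against 1.28% of the 24640 tests of all miRNAs, a share near the background. Both were of rno-miR-183-5p in thymus. At week 104 the 4 female thymi held 1324, 1531, 1813 and 1981 CPM and the 4 male thymi 170, 218, 487 and 867, with no overlap. The difference was -1.84 on the log2 scale (SE 0.46, edgeR adjusted p = 0.0271), and 1.95% of the miRNAs passed there. The sex difference also changed with age (edgeR adjusted p = 0.0416), as did that of 0.974% of the miRNAs, where male 4 of week 6 alone stood at 3476 CPM. In the week 104 thymi the miR-200 family rows summed to 9904 to 13307 CPM in females (median 11503) and 982 to 12734 in males (median 3249), and the epithelial and neuroendocrine rows to 17809 to 20636 (median 18200) and 4177 to 23021 (median 6989). Their part in the thymus difference was not tested. Both calls were lost with lane as a covariate (edgeR adjusted p = 0.227 at week 104 and 0.411 across ages), and without 5 and 11 of the 32 thymus libraries left out in turn.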

How the data were processed

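Small RNA was sequenced from 320 organ samples of 32 rats, and the files hold raw counts of reads for each miRNA. Before they deposited these counts, the authors trimmed reads with fastp 0.23.2, aligned them with Bowtie 1.3.1 (versions per the submitters' processing notes), counted them per miRNA and removed miRNAs of low mean count. The labels name the build rn7, and positions printed here are RefSeq's on GRCr8. CPM was computed from the column totals. The members, the lists and the organs described were chosen with earlier results of these data known. Counts were tested in 1 fit per organ over the sex and age groups with edgeR 4.0.16 (TMM, quasi-likelihood, R 4.3.3), adjusted over 616 miRNAs. The liver fit was also run on simulated counts with set sex differences, the same spread for every miRNA and no general change with age. Real livers differ from that setting, so the simulation does not give error rates for these data. The named miRNAs were the members and, for each, the 3 most correlated over organ and age means; lists were described by counts. Alternatives were library-size scaling, DESeq2 1.42.0, a mean count of at least 10, lane as a covariate (lanes from the study's sample list), a replicate block and leaving out libraries. CPM of a miRNA with few counts is imprecise: 3 counts, the limit a count of 0 allows, is 0.284 to 9.51 CPM by library, for counting error only.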

Additional observations from a re-analysis of the deposited data

Results flagged for a closer look

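The sex difference in liver differed between ages for rno-miR-182 (edgeR adjusted p = 0.005982) and rno-miR-96-5p (edgeR adjusted p = 0.04366), and that in thymus for rno-miR-183-5p (edgeR adjusted p = 0.04162).

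A sample far from the rest of its group was found in 24 of 156 tests on groups of 4 to 8 samples, where about 5% are flagged by chance in normal data; liver groups were tested both by age and by sex and age, and CPM values are skewed. All 24 were the highest of their group. For rno-miR-182 they were male 1 in liver at week 21, flagged both among all rats of that age and among males (8002 CPM), female 3 in liver at week 6 (4798), testis 4 at week 6 (1558), female 4 in spleen at week 21 (1210), and in skeletal muscle male 4 at week 2 (1044) and male 3 at week 21 (1013). For rno-miR-183-5p they were male 4 in thymus at week 6 (3476 CPM), testis 4 at week 6 (284), female 3 in spleen at week 104 (117), male 3 in heart at week 6 (41.2), and in skeletal muscle male 4 at week 2 (226), female 3 at week 6 (188) and male 2 at week 104 (393). For rno-miR-96-5p they were male 4 in kidney at week 21 (154 CPM), female 4 in lung at week 21 (224), female 2 in uterus at week 104 (23.6), in adrenal gland female 3 at week 21 (47.4) and female 2 at week 104 (98.2), male 1 in spleen at week 21 (39.6), female 1 in liver at week 6 (330), and in skeletal muscle female 3 at week 6 (13.2), male 2 at week 21 (25.9) and male 2 at week 104 (97.9).

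Testis 4 at week 6 and male 4 in skeletal muscle at week 2 were far out for both rno-miR-182 and rno-miR-183-5p, and female 3 at week 6 and male 2 at week 104 in skeletal muscle for both rno-miR-183-5p and rno-miR-96-5p.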

How the results depend on the processing

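In liver, leaving out each of the 32 libraries in turn kept the calls of rno-miR-182 (1.12 to 1.298 averaged over ages, log2), and of rno-miR-182, rno-miR-183-5p and rno-miR-96-5p at week 104; so did library-size scaling, DESeq2, the mean count filter, lane as a covariate and the replicate block. Averaged over ages, rno-miR-183-5p ranged from 0.658 to 0.859 and lost its call without week 2 female 1 or 3, week 2 male 4, week 6 female 3, week 6 male 4 or week 21 female 2 or 3, and with library-size scaling (0.70, edgeR adjusted p = 0.105). rno-miR-96-5p ranged from 0.798 to 1.09 and gained a call without week 6 female 1, week 6 male 1 or week 21 female 1, with DESeq2 (0.87), with lane as a covariate (0.91) and with the replicate block (1.00). At week 21 lane as a covariate added calls of rno-miR-183-5p (1.40) and rno-miR-96-5p (1.63). For sex by age, rno-miR-96-5p had adjusted p-values of 0.0259 to 0.132 over the left-out libraries, losing its call without week 2 females 1, 2 or 4, week 2 males 2, 3 or 4, week 6 males 1 or 3, week 21 females 3 or 4, week 21 males 1 or 3 or any week 104 liver, and 0.0884 with library-size scaling. rno-miR-183-5p had 0.0438 to 0.246, with a call gained without week 104 female 1, and 0.0498 with DESeq2 and 0.0192 with lane as a covariate. The cause of these and the other changes was not tested.

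Liver calls over all miRNAs went from 8 to 17 averaged over ages with DESeq2 and with lane as a covariate, from 5 to 11 and 9 at week 104, and from 9 to 19 and 28 for sex by age. Without 1 library they ranged from 7 to 13, 4 to 14 and 3 to 13, and from 7 to 15 at week 21.

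By sex, rno-miR-182 in liver changed from week 6 to 21 by -0.57 (log2) in females and 0.58 in males, from week 21 to 104 by -0.88 and 0.19, and from week 2 to 104 by 0.76 and 2.96. For rno-miR-183-5p the values from week 2 to 104 were -0.036 and 1.88. For rno-miR-96-5p they were 0.64 and 3.69, and from week 21 to 104 -1.87 and 0.12. With lane as a covariate rno-miR-96-5p changed by 2.36 from week 2 to 6 and 1.32 from week 2 to 104.

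With TMM effective library sizes rno-miR-182 rose to 7284 CPM in kidney and 2454 in uterus, rno-miR-183-5p to 411 in uterus and 202.6 in skeletal muscle, and rno-miR-96-5p to 29.4 in uterus. With all 320 libraries rno-miR-182 had a mean of 19581 CPM in brain and 670 in spleen. With a pseudocount of 5 CPM, rno-miR-200a-3p displaced rno-miR-183-3p among the 3 miRNAs most like rno-miR-182 (r = 0.823). Averaged over ages, no sex call of a member appeared in the 8 other organs under any alternative. In thymus the week 104 difference of rno-miR-183-5p was -1.78 (edgeR adjusted p = 0.0538) with the mean count filter and -1.40 with lane as a covariate, and -2.18 to -1.57 without 1 library, losing its call without week 104 females 2, 3 or 4 or males 1 or 4. Its sex by age test had adjusted p-values of 0.0564 with the filter, 0.411 with lane as a covariate and 0.0510 with the replicate block, and of 0.0115 to 0.0844 without 1 library, losing its call without those 5 or week 2 females 1 or 3, week 6 females 3 or 4 or week 21 females 1 or 2. These alternatives were chosen after seeing the data.

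Replicate numbers are shared by different rats. In liver, deviations of same-numbered libraries correlated at -0.300 to 0.377 (median 0.00456, 112 pairs) and those of other numbers at -0.342 to 0.413 (median 0.0013, 336 pairs). The replicate block gave 1.22 for rno-miR-182 averaged over ages and 9 calls against 8. Liver counts of rno-miR-183-3p, 0 to 6, were too few to show a difference.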
